A study of Mus musculus with 14 samples.

Results

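The genes described here are 10 transcripts by which astrocytes are known to keep the brain's water, potassium, glutamate and metabolism in balance: Aqp4, Slc1a2, Slc1a3, Kcnj10, Gja1, Gjb6, Glul, Aldh1l1, S100b and Aldoc. They were chosen by symbol for those functions, and all 10 were found among the 46904 genes of the expression table. The 14 libraries are polyA RNA from brain hemispheres of 12-week-old male mice, collected 48 h after a 20 min occlusion of the middle cerebral artery (MCAO), a model of ischemic stroke. Hemispheres came from wild-type mice (Cort+/+) and from mice that lack the neuropeptide cortistatin (Cort-/-, on a C57BL/6J background). The occluded hemisphere is called MCAO and the opposite hemisphere CL (contralateral). The 4 groups held 3 libraries of Cort+/+ CL, 3 of Cort+/+ MCAO, 3 of Cort-/- CL and 5 of Cort-/- MCAO. The Cort+/+ MCAO libraries are numbered 2, 3 and 4 and the Cort-/- MCAO libraries 1 to 5, and replicates 1 and 5 of Cort+/+ MCAO were not analysed here, so the mean and spread of that group, and every comparison that uses it, rest on those 3. There was no hemisphere of an animal without surgery, so CL stands for the uninjured side of an injured brain.

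Astrocytes take up the potassium and the glutamate that neurons release, pass both through a network of coupled cells, return glutamate to neurons as glutamine, and move water at the endfeet that wrap blood vessels. After injury they become reactive, a state classically recognised by more of the intermediate filament protein GFAP. Whether the homeostatic genes move with Gfap or apart from it is the question of the comparisons below. All values are in RPKM, reads scaled to gene length in kilobases and to a library size near the number of reads, so levels can be set side by side between genes. In whole hemispheres, fewer cells of a type and less RNA per cell cannot be told apart.

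Libraries held 25991115 to 43034554 reads on genes, and no homeostatic gene had fewer than 1335 reads in any library. Cort itself was read 64 to 139 times in each Cort+/+ library and 0 to 4 times in each Cort-/- library, as the labels state. Among the CL libraries, Cort+/+ CL replicate 1 and Cort-/- CL replicate 2 stood apart: Gfap was at 132 and 110 RPKM there, against 37.9 to 55.4 RPKM in the other CL libraries. The summed level of 13 reactive astrocyte genes was 244 and 209 RPKM in those libraries and 73.0 to 97.5 RPKM in the other CL libraries. Every list of cell type markers examined (astrocytes, neurons, striatal spiny neurons, oligodendrocytes and their precursors, microglia, endothelium, mural cells, ependyma, choroid plexus and cerebellum) was detected, with no listed gene at 0 throughout a group.

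In the CL hemispheres of both genotypes (n = 6) the homeostatic genes covered a wide range of levels. Glul led with a mean of 446 RPKM, followed by Aldoc at 311, Slc1a2 at 249, Slc1a3 at 120, S100b at 67.6, Gja1 at 54.7, Kcnj10 at 47.3, Gjb6 at 28.1, Aqp4 at 17.1 and Aldh1l1 at 16.05 RPKM. Each gene's CL range lay below the range of the gene before it in this order, except that the ranges of Aqp4 (15.1 to 18.7 RPKM) and Aldh1l1 (13.9 to 18.3 RPKM) overlapped. The summed level of the 10 genes was 1301 to 1477 RPKM in CL libraries and 1205 to 1401 RPKM in MCAO libraries. The sides overlapped in Cort+/+. In Cort-/- every MCAO sum (1205 to 1300 RPKM) lay below every CL sum (1301 to 1351 RPKM), by a narrow margin. The nearest were CL replicate 3 (library size 0.980 times the reads) and MCAO replicate 5 (1.02 times). This separation therefore need not hold on reads alone, which was not tested. Glul, Aldoc and Slc1a2, the highest of the 10, weigh most in the sum.

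**Figure D1:**
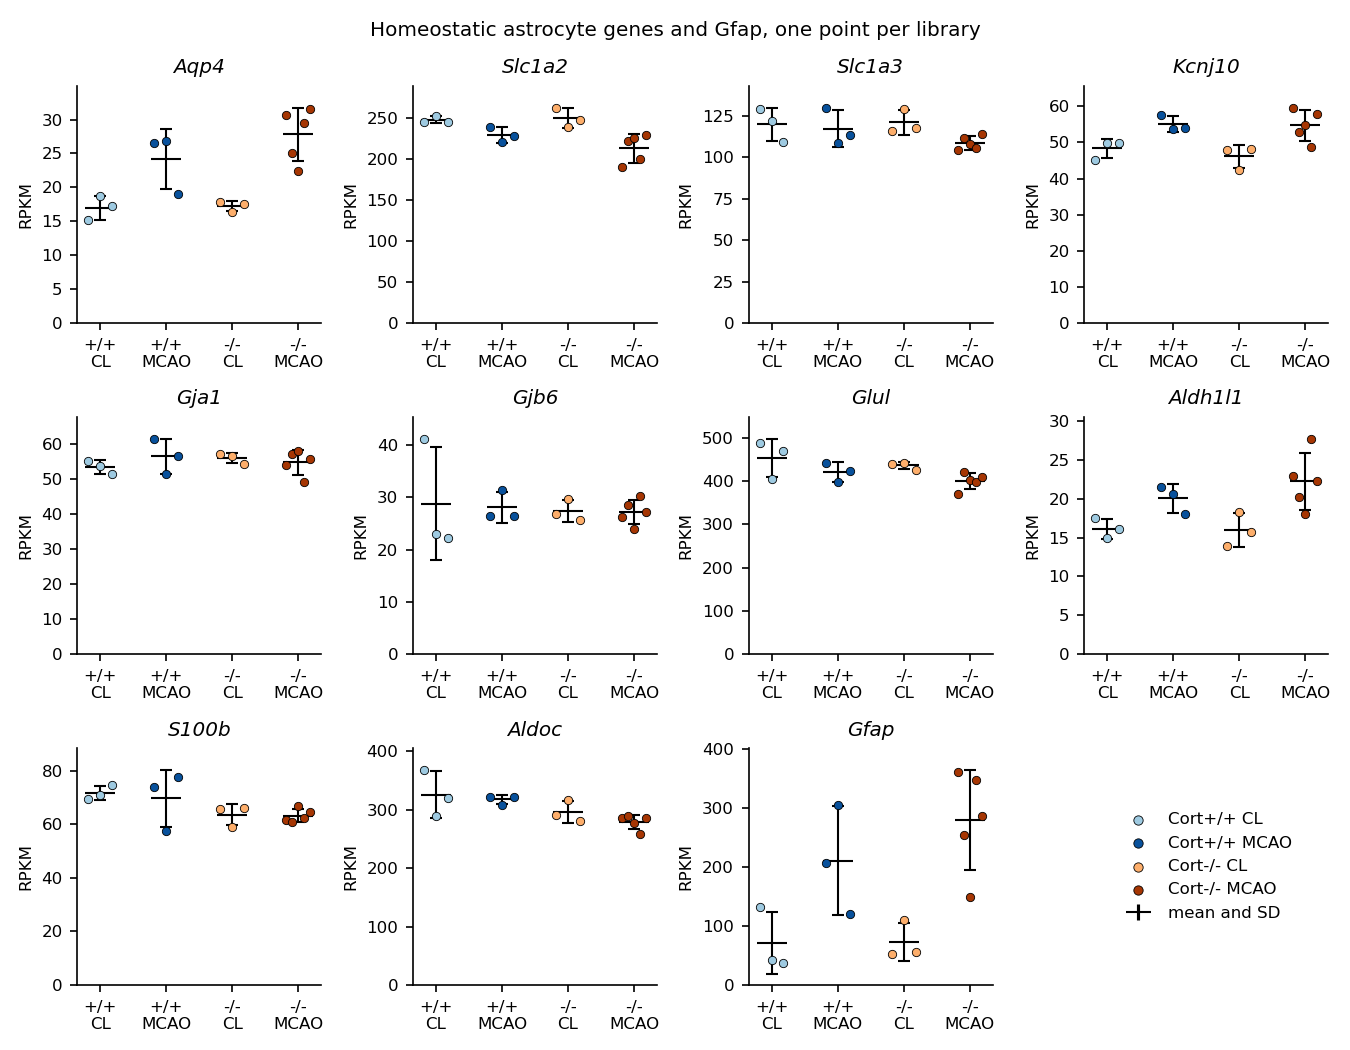
Level in RPKM (y axis, from 0) of the 10 homeostatic astrocyte genes and of Gfap in the 4 groups (x axis). Each point is a library, the bar is the group mean and the whiskers are the SD. All 8 MCAO libraries lie above all 6 CL libraries for Aqp4, while the sides of both genotypes together overlap for the other 9 homeostatic genes and for Gfap.

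The first comparison asked which homeostatic genes differed between the ischemic and the contralateral hemisphere. Averaged over both genotypes, Aqp4 was 1.50-fold, Aldh1l1 1.31-fold and Kcnj10 1.16-fold higher in MCAO, and no homeostatic gene was called lower. The other 7 genes ranged from a log2 fold change of -0.17 for Slc1a2 to 0.02 for Gja1. The test was limma on log2(RPKM + 0.1), with p adjusted by the Benjamini-Hochberg method over all 46102 genes tested and a threshold of 0.05. Of all genes tested, 2.52% (1163) were called higher and 0.902% (416) lower, a split that became 1279 and 206 when each library was rescaled to TPM. Each of the 10 had a mean above 15 RPKM, a level that 4645 genes reached. Of those, 4.35% (202) were called higher, against 3 of the 10. A further 221 were called lower, against none of the 10. The median log2 fold change was -0.01 for the 10 genes, 0.00 for all genes tested and -0.03 for those 4645. Without both CL libraries of high Gfap, Aqp4 and Aldh1l1 were still called and Kcnj10 was not, so the count was 2 of 10.

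Within Cort-/- alone, Aqp4 was the only homeostatic gene of the 10 called higher, and none was called lower. Of all genes, 1.34% were called higher and 0.382% lower there. Of the 4645 genes that reached the 15 RPKM level, 89 were called higher and 92 lower there. Within Cort+/+ alone none of the 10 was called in either direction, in a comparison that called 0.0108% of all genes (5 genes). There, 3 of the 10 (Aqp4, Kcnj10 and Aldh1l1) had an unadjusted p under 0.05 in limma, as did 7.87% of all genes (3626). Among those 4645 genes of the 15 RPKM level, 643 did. With limma voom on recovered reads the count of the 10 called in Cort+/+ was also 0. In Cort+/+, 3 of the 10 genes had every MCAO library above every CL library, where 5.73% of all genes did, and 1 (Slc1a2) had every MCAO library below, where 4.11% did. In Cort-/-, 2 of the 10 (Aqp4 and Kcnj10) lay wholly above, where 4.85% of all genes did, and 3 (Slc1a2, Slc1a3 and Glul) wholly below, where 4.27% did. These shares without overlap are over all 46102 genes tested and were not counted for genes at the level of the 10. Library sizes behind RPKM tended to be larger beside the reads in MCAO than in CL. In Cort+/+, Slc1a2 was 246 RPKM in CL replicate 3 (library size 0.954 times the reads) and 239 RPKM in MCAO replicate 2 (1.01 times). Slc1a3 in Cort-/- was 116 RPKM in CL replicate 1 (0.973 times) and 114 RPKM in MCAO replicate 5 (1.02 times). Glul in Cort-/- was 427 RPKM in CL replicate 3 (0.980 times) and 421 RPKM in MCAO replicate 2 (1.01 times). Such narrow gaps need not hold on reads alone, which was not tested.

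Aqp4 encodes aquaporin-4, the water channel of the astrocyte endfoot. The gene (ENSMUSG00000024411) lies at chr18:15522451-15544039 on the minus strand of GRCm39. Its level was 15.1, 18.7 and 17.2 RPKM in Cort+/+ CL and 26.5, 26.9 and 19.1 RPKM in Cort+/+ MCAO. It was 17.8, 16.4 and 17.6 RPKM in Cort-/- CL and 30.7, 25.04, 22.4, 29.5 and 31.6 RPKM in Cort-/- MCAO. No MCAO library of either genotype overlapped with a CL library, a separation that 1.72% of all genes showed in this direction. Cort+/+ MCAO replicate 4, at 19.1 RPKM, was the nearest to the CL range. Group means were 17.0 ± 1.78 (SD, n = 3) and 24.1 ± 4.40 RPKM (SD, n = 3) in Cort+/+ CL and MCAO, and 17.3 ± 0.772 (SD, n = 3) and 27.8 ± 3.94 RPKM (SD, n = 5) in Cort-/-.

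The log2 fold change of Aqp4 was 0.58 averaged over both genotypes (SE 0.10, 95% interval 0.37 to 0.79, limma adjusted p = 0.00634). In Cort-/- it was 0.68 (SE 0.13, limma adjusted p = 0.0232) and in Cort+/+ 0.49 (SE 0.15, limma adjusted p = 0.331). The averaged call held without any single library. The call within Cort-/- did not: without each of Cort-/- CL replicates 1, 2 and 3 and Cort-/- MCAO replicates 1, 4 and 5 in turn, the limma adjusted p was 0.0533 to 0.0898, and with only the Cort-/- libraries fitted it was 0.0688.

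None of 8 partners of the water channel (the dystrophin complex proteins Dag1, Dtna and Dmd, the endfoot membrane proteins Mlc1 and Hepacam, the calcium channel Trpv4, and the matrix proteins Agrn and Lama2) was called in either direction. Their median log2 fold change was 0.00 and their range -0.12 to 0.31, averaged over both genotypes. The difference in fold change between Aqp4 and these partners was not tested.

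Kcnj10 encodes Kir4.1, the inward rectifier channel by which astrocytes buffer extracellular potassium (ENSMUSG00000044708, GRCm39 chr1:172168765-172201652, plus strand). It was read at 45.2, 50.0 and 49.9 RPKM in Cort+/+ CL and at 57.5, 53.8 and 53.9 RPKM in Cort+/+ MCAO. In Cort-/- it was at 47.9, 42.5 and 48.1 RPKM in CL and at 59.7, 52.8, 54.9, 48.7 and 57.8 RPKM in MCAO. Within each genotype the sides did not overlap, although Cort-/- MCAO replicate 4 lay below the highest Cort+/+ CL libraries. Averaged over both genotypes, the log2 fold change was 0.22 (SE 0.05, 95% interval 0.11 to 0.33, limma adjusted p = 0.0336). It was 0.25 in Cort-/- (SE 0.07, limma adjusted p = 0.0976) and 0.19 in Cort+/+ (SE 0.08, limma adjusted p = 0.550). Within Cort-/- it passed under 3 of 27 other settings, at limma adjusted p of 0.0448 with genes under a mean of 0.5 RPKM left out, 0.0410 with limma voom on recovered reads and 0.0391 with both. The averaged call was lost, at limma adjusted p of 0.0505 to 0.0945, when any of 10 libraries was left out (all 6 CL libraries in turn, Cort-/- MCAO replicates 1 and 5 and Cort+/+ MCAO replicates 2 and 3). It was 0.16 with an adjusted p of 0.126 without both CL libraries of high Gfap.

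Of 6 potassium partners, 1 was called higher and none lower on average: Atp1b2, the beta subunit of the astrocytic sodium pump, with a log2 fold change of 0.21 (SE 0.05, limma adjusted p = 0.0241) at a mean of 204 RPKM. Kcnj16, the channel subunit Kir5.1 that pairs with Kir4.1, had a log2 fold change of 0.23 (SE 0.07, limma adjusted p = 0.0812). Kcnj16 levels were 5.83 to 7.93 RPKM in Cort+/+ CL and 8.31 to 8.53 RPKM in Cort+/+ MCAO, a separation that 5.73% of all genes showed. They were 6.83 to 7.89 RPKM in Cort-/- CL and 7.40 to 8.83 RPKM in Cort-/- MCAO, which overlapped. The median of the 6 partners was 0.05.

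Slc1a2 encodes GLT-1, the transporter that carries most glutamate uptake in the forebrain (ENSMUSG00000005089, GRCm39 chr2:102488574-102621129, plus strand). Its level was 246, 253 and 246 RPKM in Cort+/+ CL and 239, 221 and 229 RPKM in Cort+/+ MCAO. It was 263, 239 and 248 RPKM in Cort-/- CL and 190, 222, 226, 200 and 230 RPKM in Cort-/- MCAO. In RPKM, all MCAO libraries lay below all CL libraries of their own genotype, and the lowest values were those of Cort-/- MCAO replicates 1 and 4. The log2 fold change did not pass the threshold, at -0.17 averaged over both genotypes (SE 0.05, 95% interval -0.27 to -0.07, limma adjusted p = 0.0752), -0.23 in Cort-/- (SE 0.06, limma adjusted p = 0.101) and -0.11 in Cort+/+ (SE 0.07, limma adjusted p = 0.825). It passed under 3 other settings: with genes under a mean of 0.5 RPKM left out, the limma adjusted p was 0.0344 on average and 0.0475 in Cort-/-, and with limma voom on reads recovered from the RPKM values it was 0.00714 and 0.0120, or 0.0263 and 0.0378 with that filter as well. The fold change itself hardly moved (-0.17 to -0.18 on average).

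Slc1a3 encodes GLAST, the second astrocytic glutamate transporter (ENSMUSG00000005360, GRCm39 chr15:8663604-8741595, minus strand). It was at 129, 122 and 109 RPKM in Cort+/+ CL and 130, 109 and 114 RPKM in Cort+/+ MCAO, ranges that overlapped. In Cort-/- it was at 116, 129 and 118 RPKM in CL and 104, 111, 108, 105 and 114 RPKM in MCAO. Every MCAO library was below every CL library there in RPKM. On average over the genotypes, Slc1a3 had a log2 fold change of -0.09 (SE 0.05, 95% interval -0.20 to 0.02, limma adjusted p = 0.441). The ratio of Slc1a2 to Slc1a3 within a library was 2.08 ± 0.174 (SD, n = 3) in Cort+/+ CL, 1.96 ± 0.105 (SD, n = 3) in Cort+/+ MCAO, 2.07 ± 0.215 (SD, n = 3) in Cort-/- CL and 1.97 ± 0.107 (SD, n = 5) in Cort-/- MCAO, so the difference between the sides was within the spread of the libraries.

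Glul encodes glutamine synthetase, which turns the captured glutamate into glutamine and is also present in oligodendrocytes (ENSMUSG00000026473, GRCm39 chr1:153775690-153785469, plus strand). Its values were 490, 405 and 470 RPKM in Cort+/+ CL, 442, 397 and 424 RPKM in Cort+/+ MCAO, 440, 443 and 427 RPKM in Cort-/- CL, and 369, 421, 403, 398 and 411 RPKM in Cort-/- MCAO. Glul was thus the highest of the 10 genes in all 14 libraries. Between the sides, Glul had an averaged log2 fold change of -0.12 (SE 0.05, 95% interval -0.22 to -0.01, limma adjusted p = 0.268). The annotation places the microRNA gene Mir8114 (chr1:153775672-153775782) at the first bases of Glul on the same strand, so reads of the overlap can count for either. Mir8114 was read at a mean of 1126 RPKM, and the effect of the overlap on the Glul level was not tested.

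Among 10 further genes of glutamate, glutamine and GABA handling, 1 was called higher and 1 lower on average. Slc7a11, the cystine-glutamate exchanger, rose by 0.36 on the log2 scale (SE 0.08, limma adjusted p = 0.0201), and Grm5, a metabotropic glutamate receptor that neurons also express, had a log2 fold change of -0.27 (SE 0.06, limma adjusted p = 0.0362). Slc38a3, the transporter by which glutamine leaves the astrocyte, had a log2 fold change of 0.09 (SE 0.07, limma adjusted p = 0.616). The median of the list was 0.04.

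Gja1 and Gjb6 encode connexin 43 and connexin 30, the channel proteins of astrocytic gap junctions. Gja1 (ENSMUSG00000050953, GRCm39 chr10:56253241-56278609, plus strand) was at 55.2, 53.7 and 51.4 RPKM in Cort+/+ CL, 61.5, 51.4 and 56.6 RPKM in Cort+/+ MCAO, 57.1, 56.5 and 54.3 RPKM in Cort-/- CL, and 53.8, 57.2, 58.1, 49.1 and 55.8 RPKM in Cort-/- MCAO. It varied least of the 10 genes, with a coefficient of variation of 5.76% over the 14 libraries. Averaged over both genotypes, the log2 fold change of Gja1 was 0.02 (SE 0.05, 95% interval -0.08 to 0.12, limma adjusted p = 0.909). It was 0.08 in Cort+/+ and -0.03 in Cort-/-.

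Gjb6 (ENSMUSG00000040055, GRCm39 chr14:57360757-57371087, minus strand) was at 41.3, 23.0 and 22.2 RPKM in Cort+/+ CL, 26.4, 31.5 and 26.3 RPKM in Cort+/+ MCAO, 26.7, 29.7 and 25.7 RPKM in Cort-/- CL, and 26.1, 28.6, 24.0, 30.2 and 27.1 RPKM in Cort-/- MCAO. The value of 41.3 RPKM belonged to Cort+/+ CL replicate 1, which also held the highest CL level of Gfap, and was the highest Gjb6 value of the series. The averaged log2 fold change was 0.00 (SE 0.12, 95% interval -0.26 to 0.27, limma adjusted p = 0.996), and 0.18 (limma adjusted p = 0.207) without both CL libraries of high Gfap. Of 10 other connexins and pannexins, 1 was called higher: Gjb2, connexin 26, which astrocytes and the meninges share, rose by 0.40 on the log2 scale on average (SE 0.07, limma adjusted p = 0.0103) and by 0.43 in Cort-/- (SE 0.10, limma adjusted p = 0.0470). Gjb2 was read at 2.58 to 3.45 RPKM in CL libraries and 3.51 to 5.004 RPKM in MCAO libraries. These ranges were close but did not overlap, a separation that 1.72% of all genes showed in this direction.

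Aldh1l1 encodes a folate enzyme that is widely used as a marker of all astrocytes (ENSMUSG00000030088, GRCm39 chr6:90463409-90577185, plus strand). It was at 17.5, 14.9 and 16.1 RPKM in Cort+/+ CL and 21.5, 20.6 and 17.99 RPKM in Cort+/+ MCAO, with no overlap. It was at 13.9, 18.3 and 15.7 RPKM in Cort-/- CL and 22.9, 20.2, 18.05, 27.8 and 22.2 RPKM in Cort-/- MCAO, where replicate 3 of MCAO lay just below replicate 2 of CL and replicate 4 was the highest. The averaged log2 fold change was 0.39 (SE 0.09, 95% interval 0.19 to 0.59, limma adjusted p = 0.0368). In Cort-/- it was 0.47 (SE 0.12, limma adjusted p = 0.0809) and in Cort+/+ 0.31 (SE 0.14, limma adjusted p = 0.609). The difference within Cort-/- passed under 5 of 27 other settings, at limma adjusted p of 0.0371 with the 0.5 RPKM filter, 0.0442 with array weights, 0.0257 with voom, 0.0278 with voom and the filter and 0.0269 without Cort-/- MCAO replicate 3. The averaged call was lost, at limma adjusted p of 0.0606 to 0.0991, when any of 8 libraries was left out (Cort-/- CL replicates 1 and 3, Cort+/+ CL replicates 2 and 3, Cort-/- MCAO replicates 1 and 5, Cort+/+ MCAO replicates 2 and 3), and it held without both CL libraries of high Gfap (0.47, limma adjusted p = 0.0349).

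Aldoc encodes aldolase C, a glycolytic enzyme of astrocytes (ENSMUSG00000017390, GRCm39 chr11:78213619-78218889, plus strand). Its level was 369, 289 and 320 RPKM in Cort+/+ CL, 322, 309 and 323 RPKM in Cort+/+ MCAO, 291, 317 and 281 RPKM in Cort-/- CL, and 286, 290, 278, 258 and 286 RPKM in Cort-/- MCAO. The averaged log2 fold change between the sides was -0.06 (SE 0.05, 95% interval -0.17 to 0.06, limma adjusted p = 0.701). None of 12 genes of glycogen, lactate, lipid and related metabolism was called, and their median was 0.06.

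S100b encodes a calcium-binding protein that astrocytes share with oligodendrocyte lineage cells (ENSMUSG00000033208, GRCm39 chr10:76085090-76097159, plus strand). It was at 69.3, 71.1 and 74.7 RPKM in Cort+/+ CL, 74.0, 57.6 and 77.7 RPKM in Cort+/+ MCAO, 65.7, 59.0 and 66.0 RPKM in Cort-/- CL, and 61.7, 60.7, 66.8, 62.3 and 64.5 RPKM in Cort-/- MCAO. Between the sides, S100b had an averaged log2 fold change of -0.03 (SE 0.06, 95% interval -0.16 to 0.10, limma adjusted p = 0.906). The last part of S100b overlaps Dip2a on the opposite strand, which was read at a mean of 15.8 RPKM, and the strand setting used for counting is not given in the sources used here.

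**Figure D2:**
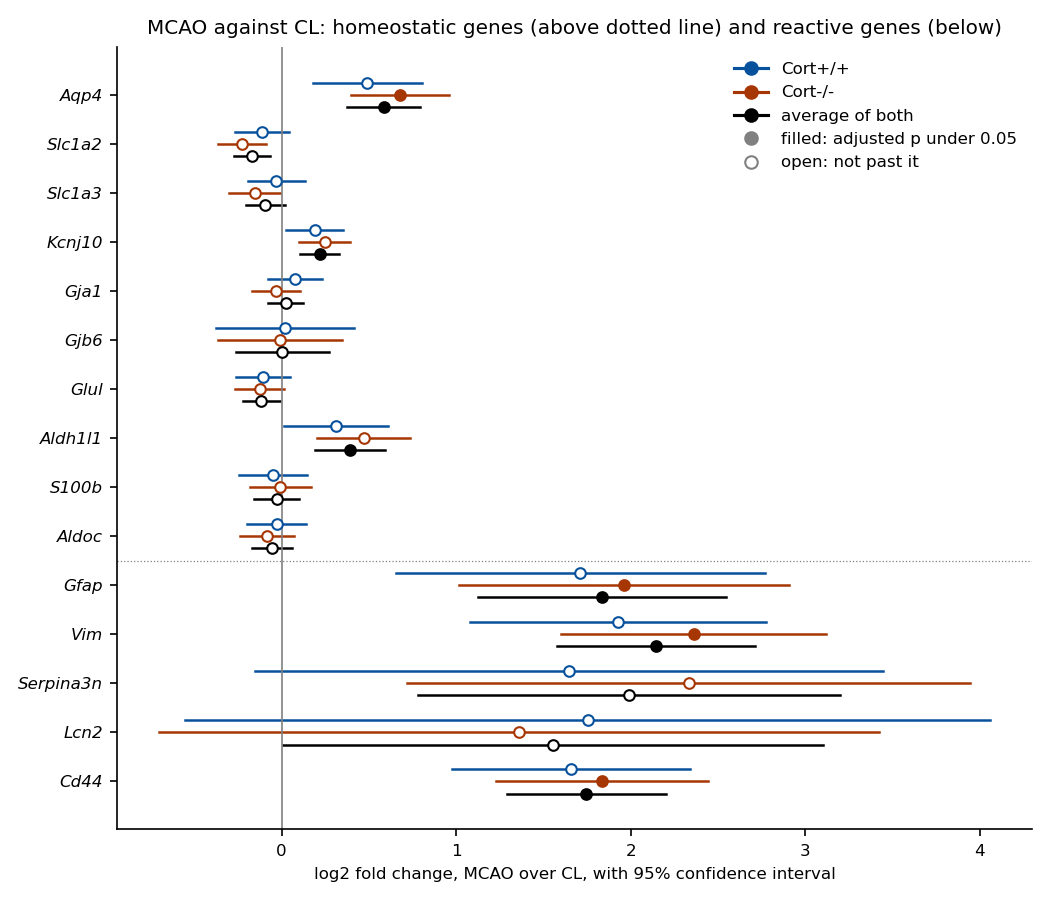
log2 fold change of MCAO over CL (x axis, with the 95% confidence interval of limma) for the 10 homeostatic genes and 5 reactive genes (y axis), in Cort+/+, in Cort-/- and averaged. Filled points passed an adjusted p of 0.05. The averaged values of the homeostatic genes lie between -0.17 and 0.58, and those of the 5 reactive genes shown between 1.56 and 2.15. The full list of 13 reactive genes ranged from 0.22 to 3.01.

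Reactive astrocyte genes gave the contrast. Gfap was at 132, 42.8 and 37.9 RPKM in Cort+/+ CL and 207, 304 and 120 RPKM in Cort+/+ MCAO. It was at 53.0, 110 and 55.4 RPKM in Cort-/- CL and 361, 254, 149, 348 and 287 RPKM in Cort-/- MCAO. In Cort+/+ the lowest MCAO library (120 RPKM) lay below CL replicate 1, so the sides overlapped, while in Cort-/- they did not. The averaged log2 fold change of Gfap was 1.84 (SE 0.33, limma adjusted p = 0.00842), and without both CL libraries of high Gfap it was 2.29 (limma adjusted p = 0.00337). In Cort-/- it was 1.96 (SE 0.44, limma adjusted p = 0.0424) and in Cort+/+ 1.71 (SE 0.49, limma adjusted p = 0.319). The call within Cort-/- passed under 16 of 27 other settings. It was lost, at limma adjusted p of 0.0544 to 0.181, when any of 9 libraries was left out (all 3 Cort-/- CL libraries in turn, Cort-/- MCAO replicates 1, 2, 4 and 5, Cort+/+ CL replicate 2 and Cort+/+ MCAO replicate 2), with a pseudocount of 1 (0.0558) and with only the Cort-/- libraries fitted (0.0723).

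Of 13 reactive genes 7 were called higher on average and none lower, and their median log2 fold change was 1.56. Their range was 0.22 to 3.01, so the lowest lay within the range of the homeostatic genes. Vim, the intermediate filament vimentin, rose by 2.15 on the log2 scale (SE 0.26, limma adjusted p = 0.00144), and Cd44, a hyaluronan receptor, by 1.75 (SE 0.21, limma adjusted p = 0.00143). Serpina3n, a protease inhibitor, had a log2 fold change of 1.99 (SE 0.56, limma adjusted p = 0.0772), and Lcn2, lipocalin-2, 1.56 (SE 0.72, limma adjusted p = 0.333), so both missed the threshold with wide errors. Vim, Cd44, Timp1 and Cxcl10 are also expressed by microglia, endothelium or infiltrating cells. In Cort-/- 5 of the 13 were called higher and in Cort+/+ none.

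**Figure D3:**
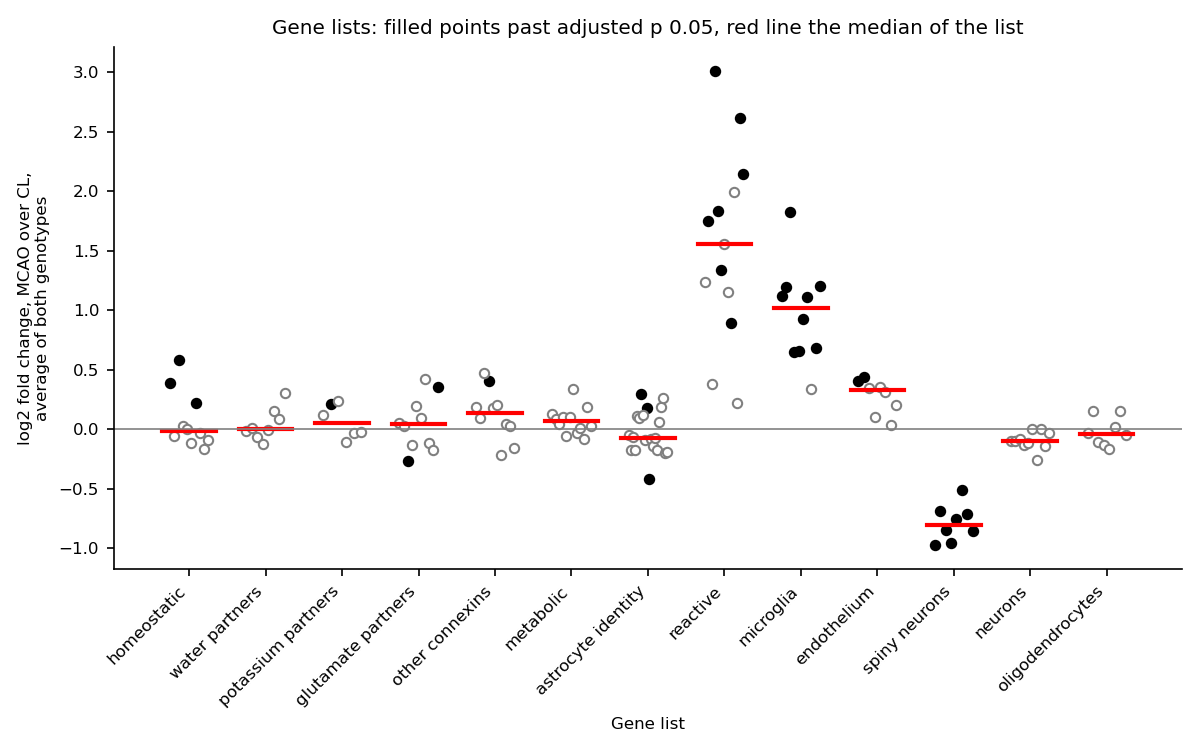
log2 fold change of MCAO over CL averaged over both genotypes (y axis) for each gene of 13 lists (x axis). Filled points passed an adjusted p of 0.05 and the red line is the list's median, which is -0.01 for the homeostatic genes, 1.56 for the reactive genes, 1.02 for microglial markers and -0.80 for striatal spiny neuron markers.

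Within single libraries the balance between a reactive and a homeostatic transcript can be read with no scaling between libraries. Gfap stood at 0.154 to 0.536 of the level of Slc1a2 in Cort+/+ CL and at 0.524 to 1.38 of it in Cort+/+ MCAO. In Cort-/- the ratio was 0.201 to 0.459 in CL and 0.661 to 1.90 in MCAO. Gfap thus exceeded Slc1a2 in 1 of 3 Cort+/+ MCAO libraries, in 4 of 5 Cort-/- MCAO libraries and in 0 of 6 CL libraries. The ratio of Gfap to Aqp4, both of which were called higher in MCAO, was 4.40 ± 3.73 (SD, n = 3) in Cort+/+ CL and 8.47 ± 2.58 (SD, n = 3) in Cort+/+ MCAO, and 4.28 ± 2.11 (SD, n = 3) in Cort-/- CL and 9.90 ± 2.14 (SD, n = 5) in Cort-/- MCAO.

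Among the homeostatic genes themselves, the ratio of Aqp4 to Slc1a2 was 0.0615 to 0.0737 in the 6 CL libraries. It was 0.0833 to 0.122 in Cort+/+ MCAO and 0.0992 to 0.161 in Cort-/- MCAO, above every CL library. The ratio of Kcnj10 to Slc1a2 was also separated, at 0.177 to 0.203 in CL against 0.235 to 0.243 in Cort+/+ MCAO and 0.238 to 0.314 in Cort-/- MCAO. The ratio of Gja1 to Gjb6 was 1.34 to 2.33 in Cort+/+ CL and 1.63 to 2.42 in Cort-/- MCAO and overlapped between all groups. These ratios were chosen after the values were seen and are given without a test.

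**Figure D4:**
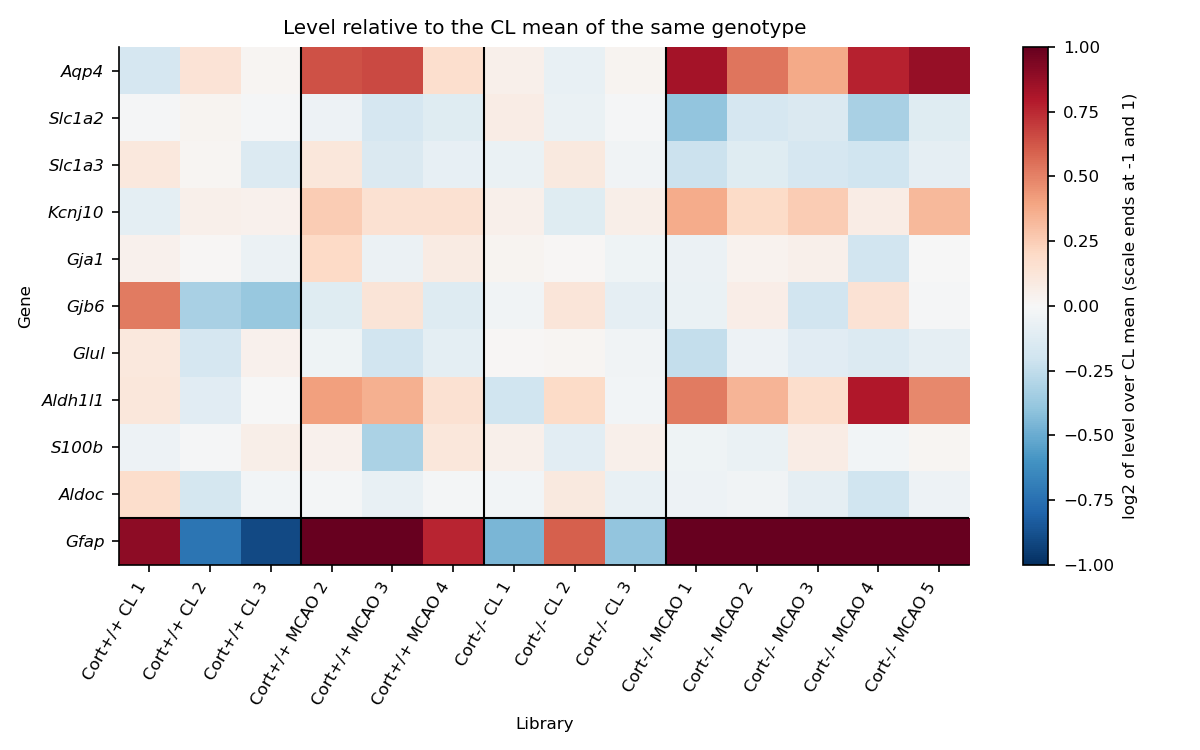
Level of each gene (rows) in each of the 14 libraries (columns) relative to the CL mean of the same genotype, on a log2 scale that ends at -1 and 1. Aqp4, Kcnj10 and Aldh1l1 are above the CL mean in all 8 MCAO libraries and Slc1a2 is below it in all 8. Gfap is at 169% to 497% of it in the MCAO libraries and differs among the CL libraries, with Cort+/+ CL replicate 1 at 186%.

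The next comparisons asked whether the absence of cortistatin changed the homeostatic genes. None of the 10 was called between the genotypes in CL, where 0.0152% of all genes were, nor in MCAO, where 0.0174% were. None had an interaction of genotype and MCAO past the threshold, where 0.00217% of all genes did (1 gene). At an unadjusted limma p under 0.05 there was 0 of 10 in CL, where 3.91% of all genes passed, 1 of 10 in MCAO, where 3.82% did, and 0 of 10 for the interaction, where 3.31% did. Of the 4645 genes that reached the 15 RPKM level, 145 passed in CL, 80 in MCAO and 44 for the interaction. No alternative setting, limma voom included, called any of the 10 in these 3 comparisons.

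In CL the largest difference was that of S100b, with a log2 fold change of Cort-/- over Cort+/+ of -0.18 (SE 0.09, 95% interval -0.37 to 0.02, limma adjusted p = 1.00). Its 3 Cort-/- CL libraries (59.0 to 66.0 RPKM) all lay below the 3 Cort+/+ CL libraries (69.3 to 74.7 RPKM), as 2.35% of all genes did. In MCAO the gene with an unadjusted limma p under 0.05 was Aldoc, at -0.19 (SE 0.07, 95% interval -0.34 to -0.03, unadjusted p = 0.0202, adjusted p = 1.00). All 5 Cort-/- MCAO libraries (258 to 290 RPKM) lay below the 3 Cort+/+ MCAO libraries (309 to 323 RPKM), as 1.56% of all genes did. In CL, Aldoc had a log2 fold change of -0.13 (SE 0.08) between the genotypes.

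For Aqp4 the genotype difference was 0.03 in CL (SE 0.15, 95% interval -0.29 to 0.34) and 0.21 in MCAO (SE 0.13, 95% interval -0.07 to 0.49), and the interaction was 0.18 (SE 0.19, 95% interval -0.24 to 0.61, limma adjusted p = 1.00). The larger rise of Aqp4 in Cort-/- was therefore not shown to differ from that in Cort+/+. For Slc1a2 the interaction was -0.12 (SE 0.10, 95% interval -0.32 to 0.09), for Kcnj10 0.06 (SE 0.10, 95% interval -0.16 to 0.28) and for Aldh1l1 0.16 (SE 0.19, 95% interval -0.24 to 0.56). With 3 to 5 libraries a group, an interaction within these intervals could not be told from 0.

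Over the 14 libraries, each gene's pattern was compared with that of 15063 genes that averaged 1 RPKM or more by the root mean square difference of centred log2(RPKM + 0.1) values. Among the 10, Aldoc and Glul were the nearest pair (0.08), followed by Slc1a2 and Glul and by Slc1a3 and Glul (0.09 each). Aqp4 and Aldh1l1 were each other's nearest homeostatic gene (0.20), and Aqp4 and Slc1a2 were the farthest pair (0.45). Outside the 10, the 2 nearest genes were Mapkapk3 (0.07) and Gm43720 (0.10) for Aqp4, Capza1 (0.05) and Rexo2 (0.06) for Kcnj10, and Nme2 and Nek6 (0.07 each) for Aldh1l1. They were Ogt and Grin2c (0.05 each) for Slc1a2, Iqcb1 (0.04) and Ivd (0.05) for Slc1a3, Cpe and Ppp2r5d (0.05 each) for Glul, and Pygb (0.04) and Tmem161a (0.05) for Gja1. They were Gm28035 (0.08) and Smox (0.09) for Gjb6, Plaat3 and Tmtc2 (0.07 each) for S100b, and Selenop (0.05) and Smim45 (0.07) for Aldoc. The measure favours genes that vary little, and the patterns share libraries and scaling.

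Of 20 other genes that mark astrocytes, 2 were called higher and 1 lower on average, and their median log2 fold change was -0.07. Ednrb, an endothelin receptor, rose by 0.29 (SE 0.06, limma adjusted p = 0.0221) and Gpr37l1, an orphan receptor of astrocytes, by 0.18 (SE 0.04, limma adjusted p = 0.0292) on the log2 scale. Id4, an inhibitor of helix-loop-helix factors that neurons also express, fell by 0.42 on average (SE 0.06, limma adjusted p = 0.00263) and by 0.55 in Cort-/- (SE 0.08, limma adjusted p = 0.00887) on that scale. Sox9, a transcription factor of the astrocyte lineage, had a log2 fold change of 0.26 (SE 0.13, limma adjusted p = 0.395).

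The supplementary marker lists of the study hold a pair of astrocyte sets, named Astrocytes 1 and Astrocytes 2. Of the 10 homeostatic genes, 6 (Aqp4, Slc1a2, Slc1a3, Gja1, Gjb6 and Aldoc) are among the 50 genes of Astrocytes 1, which also holds Gfap, while none is among the 96 of Astrocytes 2. Of the 50 genes of Astrocytes 1, 7 were called higher and 4 lower on average, and their median log2 fold change was -0.01. Of 95 tested genes of Astrocytes 2, 12 were called higher and 1 lower, and their median was 0.07.

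Markers of other cells moved with MCAO beside these values. Of 10 microglial markers 9 were called higher on average (median 1.02), and their summed level was 145 to 185 RPKM in CL libraries and 210 to 449 RPKM in MCAO libraries. All 8 markers of striatal spiny neurons were called lower (median -0.80), with sums of 398 to 447 RPKM in CL and 188 to 371 RPKM in MCAO. Of 8 endothelial markers 2 were called higher (median 0.33), and of 10 general neuronal markers none was called (median -0.10). Cort+/+ MCAO replicate 4 had the smallest shift of the MCAO libraries in the spiny neuron sum (371 RPKM), the microglial sum (210 RPKM), Aqp4 (19.1 RPKM) and Gfap (120 RPKM) alike. The part of this change in cellular makeup in the values of the homeostatic genes was not tested.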

How the data were processed

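RNA was measured in 14 libraries from mouse brain hemispheres. According to the methods, stranded mRNA libraries were processed with reanalyzerGSE 3.0.0 on GRCm39 with GENCODE M28 and tested by the authors with edgeR, and replicates that did not group clearly were left out, which can narrow the spread. The values are RPKM, deposited by the authors for 46904 genes. No column was without a sample. Every value above 0 (495656) came out as whole reads (tolerance 5e-06): 21145 genes did so with their annotated length, and for the other 25759 the smallest length that gives whole reads was searched for, so that wholeness there follows in part from the search. Library sizes were 0.954 to 0.995 times the reads on genes in CL libraries and 0.992 to 1.04 times in MCAO libraries. The RPKM values thus hold a scaling beyond read number that went partly with the side. Aligner and counter are not given in the sources used here.

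limma 3.58.1 (R 4.3.3) was run on log2(RPKM + 0.1) for 46102 genes above 0 in at least 2 libraries, with 4 group means, a trend in the prior variance, two-sided tests and Benjamini-Hochberg adjustment at 0.05. Fold changes are on that scale, whose pseudocount matters little at the levels of the homeostatic genes. The MCAO comparisons share libraries with each other and with the genotype comparisons. Libraries of a group are independent biological replicates per the methods.

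The homeostatic genes, the lists and the named genes were chosen with earlier results of these data known. Named genes were the 10, Gfap, Vim, Serpina3n, Lcn2 and Cd44 of the reactive list, every called gene of the partner and identity lists plus Kcnj16, Gjb2, Slc38a3 and Sox9, and the 2 nearest genes by pattern; 1 gene of that rule is not reported here. Coordinates and overlaps are from GENCODE M39 on the same build. Alternatives were other pseudocounts, filters, scalings, weights, a replicate block, the compared groups alone, limma voom on recovered reads and each library left out; 2 more (voom with the 0.5 RPKM filter, and leaving out both CL libraries of high Gfap) were chosen after seeing the data.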

Additional observations from a re-analysis of the deposited data

Results flagged for a closer look

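Among the 34 genes whose values were examined in the 5 Cort-/- MCAO libraries, the group large enough for Dixon's test, 2 held a library far from the others, about as many as chance gives at 1 in 20. Lcn2 was highest at 30.8 RPKM in Cort-/- MCAO replicate 4, against 0.993 to 7.81 RPKM in the other 4. Slc7a11 was lowest at 5.14 RPKM in replicate 2, against 5.84 to 6.08 RPKM. None of the 10 homeostatic genes and neither Gfap nor Vim had such a library.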

How the results depend on the processing

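Counts of called genes depended on the setting more than fold changes did. For the 10 homeostatic genes, 3 were called in the averaged comparison, and 1 to 3 when a library was left out. In Cort-/- 1 of the 10 was called, and 0 to 2 with a library left out. There, 4 were called without genes under a mean of 0.5 RPKM, 4 with limma voom, 4 with voom and that filter, 2 with array weights, 0 with only the compared groups and 0 without both CL libraries of high Gfap. In Cort+/+, between the genotypes and for the interaction, no setting called any of the 10. For all genes, the 5 called in Cort+/+ became 2 with a pseudocount of 1, 22 with 0.01, 28 with the 0.5 RPKM filter, 9 as TPM, 13 with quantile normalization, 9 with array weights, 25 with only the compared groups, 57 with voom, 0 with voom and the filter, 42 without both CL libraries, and 3 to 160 with a library left out (160 without Cort+/+ MCAO replicate 4). The 792 in Cort-/- became 1290 with the filter, 86 with only the compared groups, 1294 with voom, 1366 with voom and the filter, 280 without both CL libraries, and 133 to 1191 with a library left out (133 without Cort-/- CL replicate 1). The 1579 of the averaged comparison became 941 to 1913 with a library left out. Between the genotypes in CL, 7 genes became 4 with the filter, 90 with only the compared groups, 15 with voom, 43 without both CL libraries, and 7 to 27 with a library left out. In MCAO, 8 became 4 with the filter, 15 with only the compared groups, 5 with voom and the filter, and 7 to 40 with a library left out. For the interaction, 1 became 0 with the filter, 0 with voom, 0 with voom and the filter, 18 without both CL libraries, and 1 to 16 with a library left out. The cause was not tested, except that the filter leaves 17476 genes to adjust over.

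No called fold change of a homeostatic gene or of Gfap changed its sign under any setting. Aqp4 and Gfap passed in the averaged comparison under all 26 settings tried, Kcnj10 under 15 and Aldh1l1 under 18. Of all 1600 values of the 10 genes under the other settings and over the 6 comparisons, called ones included, 72 changed sign. Replicate numbers are shared by CL and MCAO libraries, but same-numbered libraries did not deviate together (r from -0.24 to 0.32 over 15063 genes), so they were not taken as pairs. The labels do not name the animal of a hemisphere, so the sides may share animals. The correlations cannot decide this, and the main tests took all libraries as independent. With the replicate number as a block, 1552 genes were called on average, 784 in Cort-/- and 5 in Cort+/+, with 3, 1 and 0 of the 10. How much of the spread between libraries was counting error was not tested.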
